A study of Triticum aestivum with 39 samples.

Results

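Transcript levels in the pistil and in the floral bracts of wheat (Triticum aestivum, cv. Chinese Spring) were compared, as measured on the Affymetrix Wheat GeneChip. The members are 6 of the 39 arrays of a developmental series of 13 tissues, taken by their titles: 3 arrays of pistil and 3 of floral bracts, both before anthesis. Pistils, and bracts consisting of lemma, palea and glumes, were collected 2 days before anthesis from the central floret of 10 spikes per collection. All plants were untreated Chinese Spring, grown with 16 h of light at 22 °C and 8 h of dark at 16 °C, and each array was hybridized with labelled total RNA from 1 of 3 samples of a tissue. Of the 61290 probesets in the table, 39564 were retained. These were probesets named Ta. or TaAffx., without the suffixes of cross-hybridizing sets and without those of ambiguous orientation (.A1). Probesets that lie toward the 5' end of a transcript, whose signals the study treated as unreliable, could not be told from the names used here and are among those retained. A probeset is the group of short probes that together report 1 transcript sequence, and on this array it usually does not tell apart the copies of a gene in the 3 subgenomes of hexaploid wheat. Levels are given throughout as log2(signal + 16), a scale on which a signal of 0 reads 4, and differences are pistil minus bracts on the same scale.

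The pistil is the female organ of the floret. It consists of an ovary with a single ovule, which becomes the grain after fertilization, and of feathery stigmas that catch pollen. The bracts enclose the floret. They are leaf-like organs whose green parts carry out photosynthesis and supply the developing grain. Whole organs were used, so that a lower level may come from fewer cells that use a gene or from less RNA of it per cell, and these cannot be told apart.

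The organs differed in many transcripts. Of 39564 probesets tested, 2957 were higher in pistil than in bracts (7.47%) and 4208 were lower (10.6%), at a limma adjusted p under 0.05 and a difference of at least 1. The median difference of all retained probesets was 0.03. Differences of 3 or more, which is at least 8-fold, were found for 445 probesets higher in pistil and 965 lower in pistil. At a difference of 5 or more the numbers were 121 and 203, and at 7 or more they were 33 and 28, so that the excess of lower probesets was not present among the very largest differences. The split between the directions depended on how arrays were scaled. With all arrays scaled to the hybridization controls, the median difference moved by -0.20, and 1965 probesets were higher and 5531 lower, 26.2% higher among those called instead of 41.3%. The other scalings moved the split the opposite way. Quantile normalization gave 3418 higher and 3765 lower (47.6% higher), and an equal median signal gave 3325 and 3929 (45.8% higher).

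Replicate arrays correlated at 0.955 to 0.961 within pistil and at 0.957 to 0.963 within bracts, against 0.826 to 0.844 between the organs. The polyadenylated control RNAs, which are added before labelling, read at most 6.36 on all 6 arrays. Both organs share this gap, while 1 of these controls read at least 9.78 on the 30 arrays outside these organs and the seedling root. The seedling root arrays were left out of this comparison and their readings are not given here, so the gap need not be particular to these organs. The probeset for 18S ribosomal RNA also read lower, at most 6.15 on the 6 arrays against at least 7.26 on those 30. The hybridization controls averaged 11.56 on pistil arrays and 11.23 on bract arrays (log2 signal). As a guide to background, the 64 reporter probesets had a 95th percentile of at most 6.58 on the 6 arrays. By this guide 15106 retained probesets lay above background in pistil and 15925 in bracts, and 21700 did so in neither. Of the probesets called higher in pistil, 47.4% had a bract mean at or below background, and of those called lower, 58.4% had a pistil mean there. Among probesets whose brighter organ exceeded 12, 23.3% were higher in pistil and 22.9% lower, against 2.23% and 2.66% where both organs were at background.

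**Figure D1:**
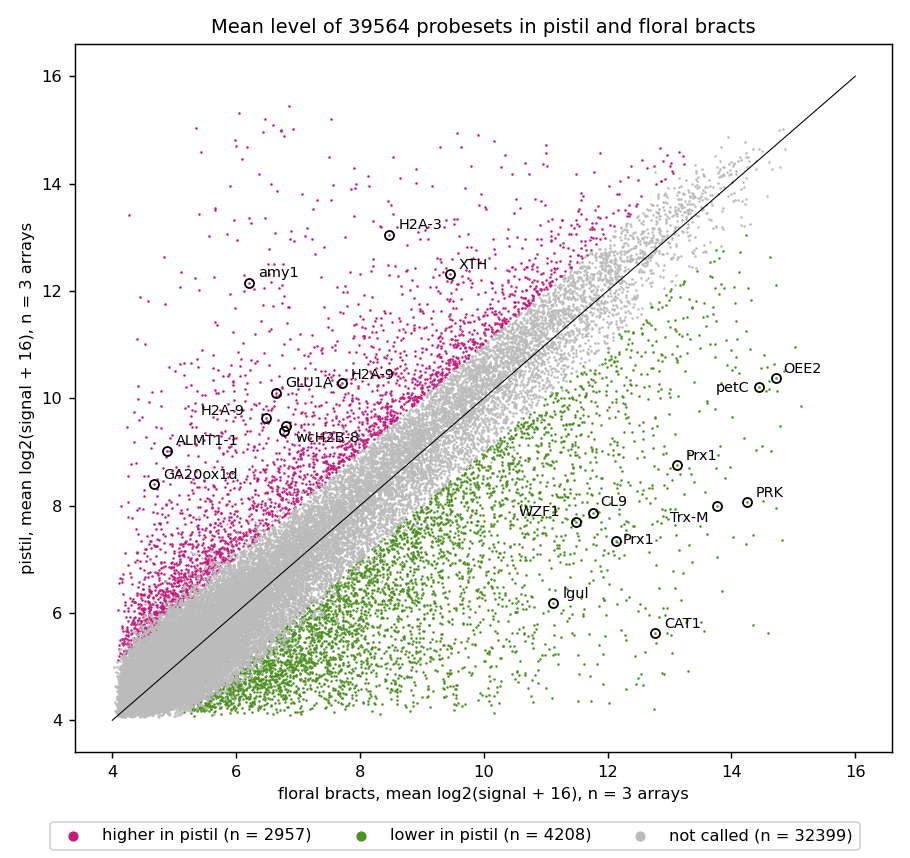
Mean level of each retained probeset in pistil (vertical axis) against floral bracts (horizontal axis), both as log2(signal + 16) over 3 arrays. Coloured points are the 2957 probesets higher and the 4208 lower in pistil, grey points were not called, the line marks equal levels, and circles mark the 20 named probesets with the largest differences.

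Gene names were available for 110 of the retained probesets, which report 76 genes. Of these probesets, 18 were higher in pistil (16.4%), 32 were lower (29.1%) and 60 were not called, against 7.47% and 10.6% of all retained probesets. Probesets with only a locus number in the annotation, 603 in all, were higher in 95 cases (15.8%) and lower in 107 (17.7%). Both sets were brighter than most, with median levels of 7.29 and 8.89, against 5.95 for probesets with no gene. The tissues could be checked against few of their defining genes. No retained probeset carries the name of a carpel gene, so that the pistil label was not checked in this way. Of the green tissue genes described below, PRK, OEE2, petC and CL9 had bract means of 11.77 to 14.72, while most rbcl probesets were at background in both organs. The anther gene raftin1a, which is active in the tapetum and read 9.80 ± 1.45 in anthers (SD, n = 3), was at background in both organs, at 4.27 ± 0.15 in pistil and 5.30 ± 0.18 in bracts. Its difference of -1.03 was not called (limma adjusted p = 0.20), but was called in 3 of 16 alternatives. The endosperm storage protein genes GAG56D and gli-2, at 16.30 and 15.84 in the 22 DAP (days after pollination) endosperm, read 4.12 and 5.58 in pistil and 4.09 and 4.85 in bracts. For the avenin-like storage protein gene ALP, by contrast, probeset Ta.27777.1.S1_at was bright in both organs, at 12.73 in pistil and 12.59 in bracts. The other ALP probesets and that of the avenin-like gene avnla were at background in both.

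Photosynthesis genes were the group with the largest number of probesets lower in pistil. Of 27 probesets for 5 genes, 13 were lower in pistil, 1 was higher and 13 were not called, beside 10.6% lower and 7.47% higher over all retained probesets. The median difference was -1.10, and 21 of the 27 report a single gene, rbcl. PRK, phosphoribulokinase, which makes the carbon dioxide acceptor of the Calvin cycle, read 8.06, 8.35 and 7.77 on the pistil arrays and 14.23, 14.19 and 14.32 on the bract arrays. It was bright on every bract array and far lower on every pistil array, a difference of -6.19 ± 0.40 (SE; limma adjusted p = 1.8e-13), or 72.9-fold. OEE2, a subunit of the oxygen-evolving complex of photosystem II, read 10.29, 10.30 and 10.53 in pistil against 14.54, 14.60 and 15.00 in bracts, a difference of -4.34 ± 0.55 (limma adjusted p = 2.1e-07). petC, the Rieske iron-sulfur protein of the cytochrome b6f complex, read 10.26, 10.16 and 10.22 in pistil against 14.41, 14.24 and 14.71 in bracts, a difference of -4.24 ± 0.51 (limma adjusted p = 7.2e-08). Both thylakoid genes were thus well above background in pistil too. FBP, the fructose-1,6-bisphosphatase of the chloroplast, averaged 9.63 ± 0.17 in pistil and 12.30 ± 0.02 in bracts (SD, n = 3 each; limma adjusted p = 0.00011).

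The 21 probesets for rbcl, the plastid-encoded large subunit of Rubisco, did not give a single answer. Of these, 9 were lower in pistil, 1 was higher and 11 were not called, and the differences ran from -3.33 to 1.18 with a median of -0.98. In 14 of the 21, both organs were at background. The probeset with the largest difference, TaAffx.128414.72.S1_at, read 5.33, 5.43 and 5.32 in pistil and 8.60, 9.18 and 8.28 in bracts, while the brightest, TaAffx.128414.196.S1_at, averaged 9.47 ± 0.50 in pistil and 10.07 ± 0.26 in bracts (limma adjusted p = 0.26). The probeset that was higher in pistil, Ta.14567.2.S1_at, read 5.89 ± 0.17 in pistil and 4.72 ± 0.64 in bracts, with both means at background. Its call was lost without bracts replicate 2 (1.04, limma adjusted p = 0.078), without bracts replicate 3 (0.95, limma adjusted p = 0.11) and without pistil replicate 1 (1.11, limma adjusted p = 0.059). Calls of other dim or variable rbcl probesets also rested on single arrays. Without bracts replicate 2, TaAffx.128414.181.S1_at was at -0.89, and without bracts replicate 3, TaAffx.128414.47.S1_at was at -0.85 (limma adjusted p = 0.081), so that both calls were lost. Calls were gained by TaAffx.128414.126.S1_at without bracts replicate 3 (-1.51) and by TaAffx.128414.53.S1_at without bracts replicate 1 (-1.23) or pistil replicate 1 (-1.10). Second probesets for petC and FBP, TaAffx.128418.105.S1_at and TaAffx.106041.1.S1_at, had differences of -0.23 and -0.37 and were not called. That for petC was at background in both organs, at 5.17 in pistil and 5.41 in bracts. That for FBP was at background in pistil (6.29) and barely above it in bracts (6.66).

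Other plastid proteins behaved like the thylakoid genes, and all 5 probesets for 3 genes were lower in pistil, with a median difference of -4.37. Over all retained probesets, 10.6% were lower. Trx-M, the m-type thioredoxin that activates chloroplast enzymes in the light, read 8.00, 7.82 and 8.15 in pistil and 13.69, 13.79 and 13.83 in bracts. The difference was -5.78 ± 0.52 (limma adjusted p = 2.4e-10), with a wide gap between the organs. CL9, protein L9 of the chloroplast ribosome, read 8.10, 7.60 and 7.88 in pistil against 11.46, 11.82 and 12.02 in bracts, a difference of -3.91 ± 0.33 (limma adjusted p = 5.1e-11). Prx1 encodes a peroxiredoxin, an enzyme that removes peroxides. Of its 3 probesets, Ta.6572.2.S1_at read 7.39, 7.26 and 7.39 in pistil against 12.01, 12.15 and 12.23 in bracts, and Ta.6572.1.S1_at read 9.18, 8.22 and 8.86 in pistil against 13.16, 13.12 and 13.09 in bracts. These differences were -4.78 and -4.37. The third, Ta.6572.3.S1_at, was dim, at 5.52 ± 0.70 in pistil and 6.90 ± 0.22 in bracts. Its difference of -1.38 lost its call without bracts replicate 1 or 2 (-1.32 and limma adjusted p = 0.07 in each case), without pistil replicate 1 (-1.03, limma adjusted p = 0.16) and without pistil replicate 2 (-1.39, limma adjusted p = 0.055).

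**Figure D2:**
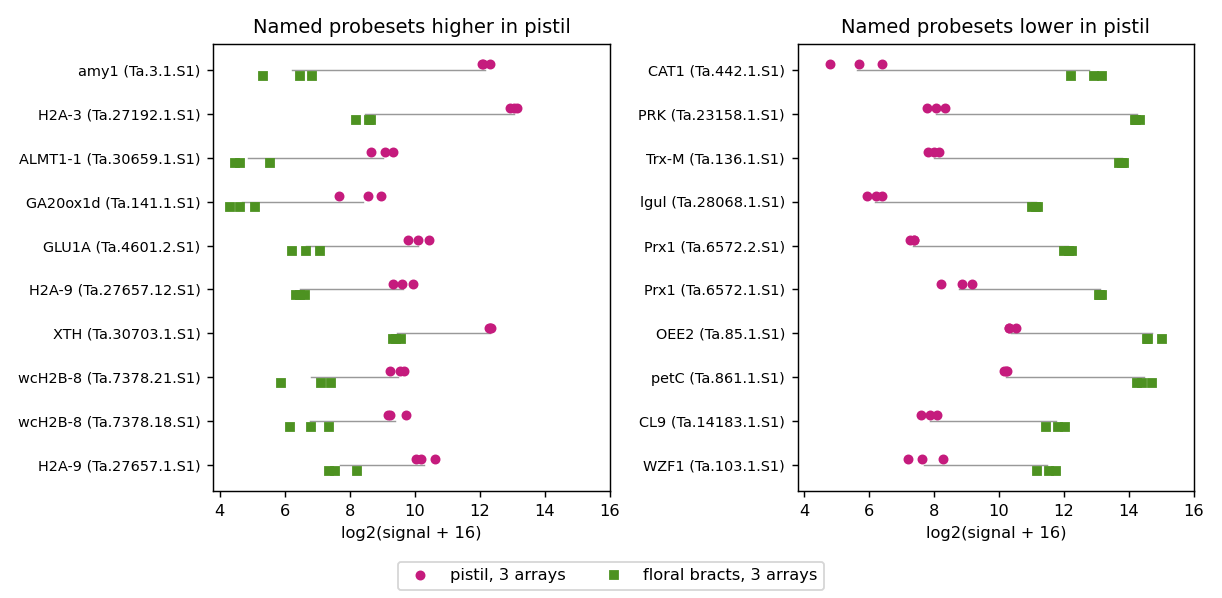
Level on each array, as log2(signal + 16), of the 10 named probesets in each direction with the largest differences among those called without overlap between the organs. Circles are the 3 pistil arrays and squares the 3 bract arrays, and the line joins the means. The organs do not overlap in any row because the rows were chosen so.

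Redox and detoxification genes were mostly lower in pistil as well, with 5 of 7 probesets lower, 1 higher and 1 not called, beside 10.6% lower and 7.47% higher over all retained probesets. CAT1, a catalase, which breaks down hydrogen peroxide, had the largest difference of any named probeset. It read 4.80, 5.69 and 6.39 on the pistil arrays and 13.17, 12.20 and 12.92 on the bract arrays. The difference was -7.13 ± 0.40 (limma adjusted p = 6.3e-15). Its size depends on the offset, since the pistil arrays were at background. A second CAT1 probeset, TaAffx.80209.1.S1_at, was at background in both organs. Among the other 11 tissues the first CAT1 probeset was brightest in the seedling leaf, at 13.90 ± 0.34. The lgul gene encodes lactoylglutathione lyase, the glyoxalase that disposes of methylglyoxal. Its probeset Ta.28068.1.S1_at read 5.93, 6.21 and 6.41 in pistil against 11.15, 11.01 and 11.21 in bracts, a difference of -4.94 ± 0.50 (limma adjusted p = 2e-09), and a second, Ta.8554.1.S1_at, differed by -2.54. GSTZ1, a glutathione transferase of the zeta class, which acts in tyrosine breakdown, was lower in pistil in both of its probesets, by -3.25 and -2.33. PCS1, phytochelatin synthase, which makes the peptides that bind heavy metals, went the other way, at 10.23 ± 0.14 in pistil and 8.28 ± 0.42 in bracts (limma adjusted p = 4.4e-08).

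Core histone genes were higher in pistil throughout. All 7 probesets for 4 genes were called, beside 7.47% called higher over all retained probesets. Their differences were 1.34 to 4.57, with a median of 2.62 against 0.03 over all retained probesets. All 7 were higher under each of the scalings tried. Histones H2A and H2B form part of the nucleosome and are made in bulk in cells that replicate their DNA. H2A-3 read 12.94, 13.15 and 13.05 in pistil and 8.65, 8.59 and 8.18 in bracts. The 3 arrays of each organ lay close together and far from the other organ, a difference of 4.57 ± 0.38 (limma adjusted p = 3.7e-11). H2A-9 was higher in its probesets Ta.27657.12.S1_at, with 9.93, 9.61 and 9.33 in pistil against 6.48, 6.61 and 6.35 in bracts, and Ta.27657.1.S1_at, with 10.63, 10.03 and 10.19 in pistil against 8.21, 7.54 and 7.37 in bracts. The 3 probesets for wcH2B-8 differed by 2.68, 2.62 and 2.13, and wcH2B-6 by 1.34. In absolute terms the pistil was not the tissue with the highest histone levels. H2A-3, both H2A-9 probesets and wcH2B-8 were brightest in the immature inflorescence, where H2A-3 read 14.11 ± 0.11, and wcH2B-8 (Ta.7378.21.S1_at) read 14.25 ± 0.09 there against 9.48 in pistil and 6.80 in bracts. This wcH2B-8 probeset was also higher in the seedling leaf (10.52) and the 22 DAP endosperm (9.72) than in pistil. Apart from bracts, only anthers were lower, at 8.21. H2A-3, by contrast, was higher in pistil than in the seedling leaf, where it read 10.87.

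Tubulin genes, whose products form microtubules, were divided. Of 4 probesets, 2 were higher in pistil, 1 was lower and 1 was not called. The shares over all retained probesets were 7.47% higher and 10.6% lower. The beta-tubulin gene tubb1 read 12.81, 12.62 and 12.50 in pistil and 14.52, 14.63 and 14.69 in bracts, a difference of -1.98 ± 0.14 (limma adjusted p = 1.3e-12). Tubb5, another beta-tubulin, read 13.12, 12.78 and 13.04 in pistil and 12.14, 11.69 and 12.06 in bracts, a difference of 1.02 ± 0.18 (limma adjusted p = 4.6e-05). The 2 genes were thus both bright in both organs and differed in opposite directions. Tubb5 fell short of a difference of 1 without bracts replicate 2 (0.88), without pistil replicate 1 (0.94), without pistil replicate 3 (0.98) and with scaling to the hybridization controls (0.69). TUBA, an alpha-tubulin, read 9.38, 10.89 and 9.66 in pistil against 9.17, 7.06 and 7.40 in bracts, a difference of 2.10 ± 0.46. This one was uneven between replicates, and its limma adjusted p was 0.00063 with all 13 tissues in the fit but 0.062 with the 6 arrays alone. The third beta-tubulin, tubb2, stood at 14.27 ± 0.09 in pistil and 14.40 ± 0.21 in bracts and was not called.

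Carbohydrate metabolism was represented by 8 genes, of which 1 was higher in pistil, 4 were lower and 3 were not called. Over all retained probesets, 7.47% were higher and 10.6% lower. The gene listed as amy1 and as BMY1, both names of amylases, which degrade starch, read 12.32, 12.05 and 12.09 in pistil and 6.84, 5.34 and 6.47 in bracts. The difference was 5.94 ± 0.46 (limma adjusted p = 6.8e-12), the largest of a named probeset higher in pistil with the offset of 16. The bract mean of 6.21 was at background, and the alternatives gave 5.20 to 6.31. In the series it was brighter still in the 3-5 DAP caryopsis, at 13.93 ± 0.13. Pgk-1, a phosphoglycerate kinase, read 10.88, 10.94 and 10.95 in pistil against 14.18, 14.15 and 14.56 in bracts, a difference of -3.37 ± 0.21 (limma adjusted p = 3.7e-14). AGA.1, a sequence for ADP-glucose pyrophosphorylase, the enzyme that supplies starch synthesis, averaged 7.46 ± 0.09 in pistil and 10.72 ± 0.16 in bracts, while AGP-S, a small subunit of the same enzyme, averaged 11.98 ± 0.08 in pistil and 11.81 ± 0.18 in bracts and was not called. GAPN, the non-phosphorylating glyceraldehyde-3-phosphate dehydrogenase, differed by -2.73. The fructan exohydrolase 1-FEH, which breaks down fructans, fell to 11.89 ± 0.15 in pistil, against 13.02 ± 0.05 in bracts (limma adjusted p = 5.7e-07). The related 6-FEH differed by -0.92 and was not called (limma adjusted p = 0.16).

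**Figure D3:**
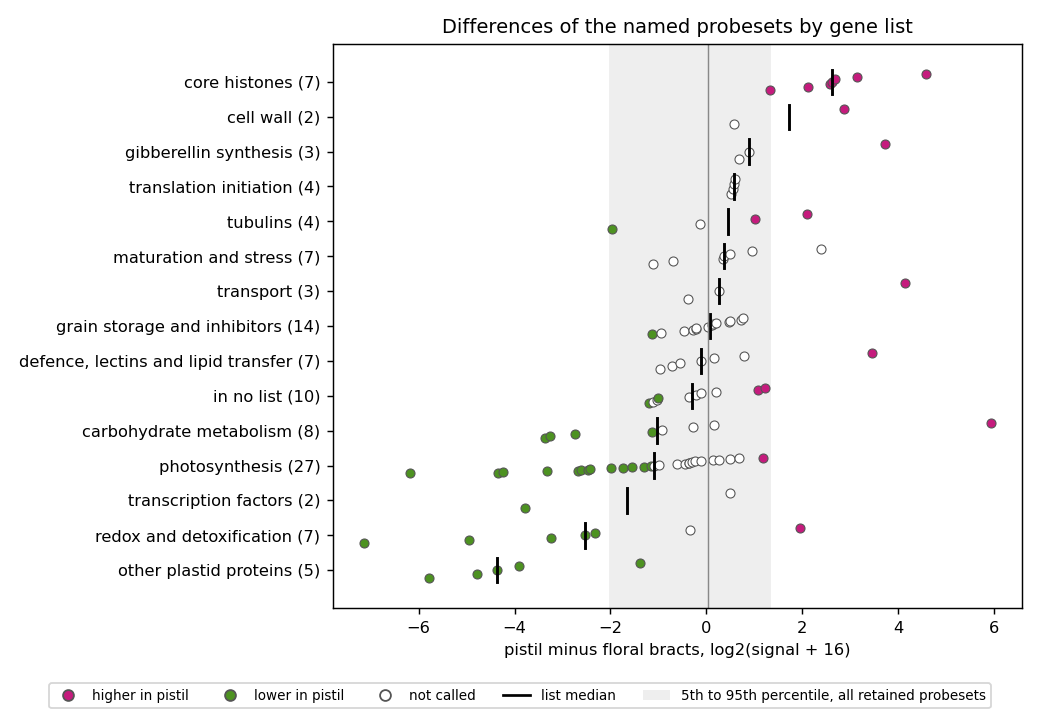
Pistil minus bracts difference on the log2(signal + 16) scale (horizontal axis) for the 110 named probesets, by gene list with the number of probesets in parentheses. Filled points were called higher or lower in pistil and open points were not called, black bars are list medians, the grey line is the median of all retained probesets and the grey band holds their 5th to 95th percentile. Core histones lie wholly on the right and other plastid proteins wholly on the left.

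In the short lists of gibberellin synthesis, the cell wall, transport and defence, 1 probeset of 3, 1 of 2, 1 of 3 and 1 of 7 was higher in pistil and none was lower, beside 7.47% higher and 10.6% lower over all retained probesets. GA20ox1d is a gibberellin 20-oxidase, an enzyme of the late steps of gibberellin synthesis. It read 7.67, 8.97 and 8.55 in pistil and 5.07, 4.63 and 4.31 in bracts, so that bracts were at background, and the difference was 3.72 ± 0.34 (limma adjusted p = 3e-10). Probesets for its relatives GA20ox1a and GA20ox1b were at background in both organs, although GA20ox1a passed the test without bracts replicate 1 (1.09, limma adjusted p = 0.03). XTH, a xyloglucan endotransglucosylase/hydrolase, which remodels xyloglucan in growing walls, read 12.31, 12.29 and 12.34 in pistil against 9.59, 9.34 and 9.43 in bracts, a difference of 2.86 ± 0.25 (limma adjusted p = 1.3e-10). ALMT1-1, the malate transporter known from aluminium tolerance of wheat roots, read 8.66, 9.34 and 9.07 in pistil against 5.55, 4.47 and 4.62 in bracts, a difference of 4.14 ± 0.49 (limma adjusted p = 5.2e-08). It was highest in the seedling root, at 10.98 ± 0.56. The other transport genes were not called. TPC1, a cation channel, differed by 0.27, and H+-ATPase, a proton pump, by -0.39 with a limma adjusted p of 0.037. The cell wall gene Glc1 was at background in both organs. GLU1A, a beta-glucosidase that releases defensive benzoxazinoids from their glucosides, read 10.43, 9.78 and 10.10 in pistil against 7.08, 6.21 and 6.66 in bracts, a difference of 3.45 ± 0.27 (limma adjusted p = 7.4e-12). In pistil it was still far under its level in the seedling leaf, 15.47 ± 0.27.

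The other defence genes on the list of 7 were not called. LTP3, a lipid transfer protein gene, was bright in both organs, at 13.73 ± 0.03 in pistil and 13.57 ± 0.16 in bracts. PR5, a thaumatin-like protein, the lectin gene WGA2 and the remaining members were at background in both. The transcription factor list held only 2 probesets, of which 1 was lower in pistil and 1 was not called. Over all retained probesets, 10.6% were lower and 7.47% higher. WZF1, a zinc finger protein, was lower and read 7.62, 7.19 and 8.28 in pistil and 11.53, 11.18 and 11.77 in bracts, a difference of -3.79 ± 0.60 (limma adjusted p = 8.5e-06). TBP1, the TATA-binding protein of the general transcription machinery, averaged 11.07 ± 0.05 in pistil and 10.56 ± 0.10 in bracts. Over all retained probesets, 25.9% had a limma adjusted p under 0.05, whatever the size of the difference. So had the 4 genes of translation initiation, eIF-2-beta, eIF4E, Eif4B and NCBP. Their differences were small, at 0.52 to 0.61, and they were therefore not called. Scaling to the hybridization controls brought them to between 0.20 and 0.29. FKBP70, an immunophilin that assists protein folding, averaged 12.95 ± 0.23 in pistil and 11.72 ± 0.15 in bracts, a difference of 1.23, which was 0.91 with that scaling.

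Of 14 probesets for storage proteins and inhibitors of the grain, 1 was lower in pistil and 13 were not called, against 18.1% called over all retained probesets. Both organs were at background in 10 of the 14, as in 54.8% of all retained probesets. One probeset for ALP, an avenin-like storage protein, Ta.27777.1.S1_at, was bright in both organs, at 12.73 ± 0.07 in pistil and 12.59 ± 0.04 in bracts. Its means in the other tissues were alike, from 12.10 in the seedling root to 13.30 in the 22 DAP embryo. The other ALP probesets were at background in both organs. In the 22 DAP endosperm these read 16.29 (Ta.27712.1.S1_at) and 14.95 (Ta.27777.1.S2_at). The probeset called was CIII, an amylase inhibitor gene, at 5.66 ± 0.76 in pistil and 6.79 ± 0.11 in bracts. The difference of -1.13 was -0.70 without pistil replicate 2 (limma adjusted p = 0.14). Against 18.1% called over all retained probesets, none of the 7 probesets for maturation and stress was called with the fit over 13 tissues. Of these, a probeset for rab, TaAffx.46097.2.S1_at, read 6.61, 6.89 and 7.47 in pistil and 4.99, 4.40 and 4.42 in bracts. The organs did not overlap and the difference was 2.38 ± 0.98, with a limma adjusted p of 0.075 in the fit over 13 tissues and 0.0016 in a fit on the 6 arrays. PCM, a methyltransferase that repairs damaged proteins, differed by -1.11 (limma adjusted p = 0.051), and was called in 6 of 17 alternatives, with a limma adjusted p of 0.0065 to 0.20 over all of them. Transcripts of the late embryo gene Em, at 15.10 in the 22 DAP embryo, were at background in pistil and bracts. Its difference of 0.94 passed the limit without pistil replicate 1 (1.03) or 3 (1.19), as did that of gli-2 without bracts replicate 1 (1.42) and that of an amylase inhibitor probeset, ATI (Ta.58.1.S1_at), without pistil replicate 2 (-1.42). The named probesets in no list that passed both limits were, beside FKBP70, la-17 and TSA, with differences of 1.08 and -1.20, and cys1, at 11.71 ± 0.04 in pistil and 12.71 ± 0.13 in bracts. Among them la-17 and cys1 lay near the limit, and la-17 was 0.97 without bracts replicate 1 and 0.99 without pistil replicate 2, and cys1 -0.99 without bracts replicate 2, -0.94 without bracts replicate 3 and -0.98 without pistil replicate 2.

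The largest differences belonged to probesets without a gene name. Ta.3873.1.S1_at read 15.01, 15.06 and 15.02 on the pistil arrays and 5.52, 5.86 and 4.69 on the bract arrays. The difference of 9.67 ± 0.39 (limma adjusted p = 4.4e-18) was the largest with an offset of 16. Bracts were at background, so that the order of the largest differences depends on the offset. With an offset of 1, TaAffx.52744.1.S1_at differed by 11.34 and Ta.3873.1.S1_at by 10.42. Among the other 11 tissues it was above background in the 3-5 DAP caryopsis, at 9.32 ± 0.25, and just above it in anthers, at 6.75 ± 0.17. Ta.27705.1.S1_at read 15.28, 15.41 and 15.25 in pistil against 5.40, 6.31 and 6.43 in bracts. TaAffx.37509.1.S1_at, TaAffx.52744.1.S1_at and Ta.11473.1.S1_at had pistil means of 14.59, 13.41 and 14.81 and bract means of 5.43, 4.27 and 5.98. These 4 probesets were at background in all 11 other tissues.

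In the opposite direction, Ta.5598.1.S1_at read 5.39, 5.83 and 5.63 in pistil and 14.52, 14.42 and 14.83 in bracts, a difference of -8.97 ± 0.62 (limma adjusted p = 7.4e-13). It was also bright in the seedling leaf, at 13.59 ± 1.16. Ta.18638.1.S1_at read 4.20, 4.20 and 4.21 in pistil, at the floor of the scale, and 12.66, 12.85 and 12.75 in bracts. Its highest mean in another tissue was 8.37. TaAffx.24487.1.S1_at, with means of 4.91 in pistil and 13.30 in bracts, was brightest in the seedling crown, at 14.13 ± 0.08. Ta.13318.1.S1_at, with 5.77 in pistil and 14.35 in bracts, reached 12.03 ± 0.34 in the immature inflorescence. Ta.30640.1.S1_at, which carries a locus number only (LOC100037541), had means of 4.87 in pistil and 12.92 in bracts, and 9.25 ± 0.69 in the immature inflorescence. Each of the 5 was above background in at least 2 of the other tissues.

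**Figure D4:**
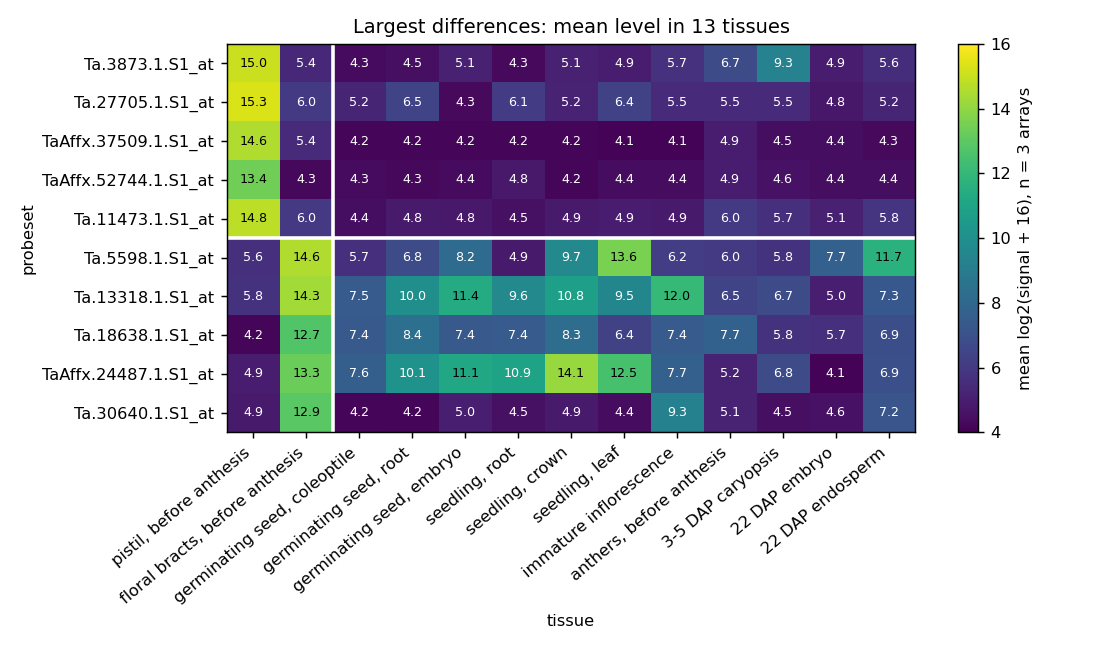
Mean level as log2(signal + 16), over 3 arrays, of the 5 probesets with the largest difference in each direction (rows; higher in pistil above the white line) in the 13 tissues (columns; pistil and bracts left of the white line). The pistil probesets are dark in nearly all other tissues, whereas bract probesets such as TaAffx.24487.1.S1_at are bright in the seedling crown and leaf.

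Among all differences of 5 or more, breadth varied widely in both directions. Of 121 probesets higher in pistil by that much, 13 were above background in none of the other 11 tissues and 14 in all of them, and of 203 lower in pistil, 11 were above background in none and 14 in all. The tissues themselves differed. The 3-5 DAP caryopsis had 88 of the 121 above background, the most of any tissue, and the seedling leaf 59. Of the 203, the seedling leaf had 174, the most of any tissue, and the caryopsis 123. The share of all retained probesets above background in each of these tissues is not given here. Their median level over all retained probesets was 5.72 in the caryopsis and 6.08 in the seedling leaf. Over all called probesets, the tissue with the highest mean among the other 11 was the seedling leaf for 41.8% of those lower in pistil and for 6.59% of those higher in pistil, against 15.6% of all retained probesets. The immature inflorescence was highest for 18.4% of those higher in pistil and 3.61% of those lower, against 9.46% of all. The 3-5 DAP caryopsis was highest for 11.7% of those higher in pistil and 2.12% of those lower, against 3.24% of all.

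The ovary becomes the caryopsis, and bracts resemble leaves. The contrast of 3-5 DAP caryopsis with seedling leaf was therefore examined among the same probesets, on 6 other arrays. Over all retained probesets, 10.8% were higher in caryopsis than in leaf and 17.1% lower. Among the 2957 probesets higher in pistil, 42.5% were higher in caryopsis and 9.87% lower, with a median difference of 0.74, against -0.21 over all. Among the 4208 lower in pistil, 5.61% were higher in caryopsis and 57.6% lower, with a median of -1.36. The directions were opposite in the 2 sets. These shares are descriptions, and no test was made of them. Both contrasts came from the same fit and share its variance for each probeset, so that their calls are not independent. The shares over all include the 54.8% of probesets at background in both pistil and bracts. Named genes took part unequally. All 7 core histone probesets and amy1 were higher in caryopsis than in leaf, with 2.50 for H2A-3 and 2.23 for amy1. ALMT1-1, GA20ox1d and GLU1A, higher in pistil, were instead lower in caryopsis than in leaf, by -3.80, -1.71 and -3.30. PRK and CAT1 were lower in caryopsis by -3.62 and -4.98.

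**Figure D5:**
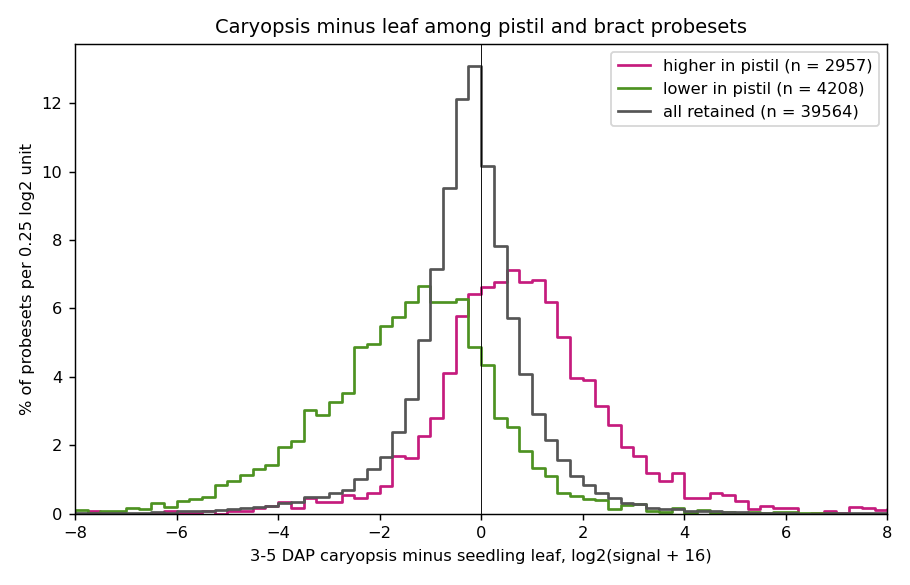
Distribution of the difference of 3-5 DAP caryopsis minus seedling leaf (horizontal axis, log2 units) in percent of probesets per bin (vertical axis), for probesets higher in pistil, lower in pistil and all retained. The curve of probesets higher in pistil is shifted to the right (median 0.74) and that of probesets lower in pistil to the left (median -1.36) of the curve of all (median -0.21).

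Probesets made from 1 UniGene cluster, a group of expressed sequences taken to come from 1 gene, were compared in direction. Of 1746 clusters with several retained Ta. probesets, 214 had at least 2 called. In 74 of these all calls were higher in pistil, in 128 all were lower, and in 12 (5.61%) they went both ways. In cluster Ta.4224, Ta.4224.1.S1_at read 11.19, 11.34 and 11.44 in pistil against 8.12, 8.08 and 7.92 in bracts. Its partner Ta.4224.2.S1_at read 5.95, 6.34 and 6.13 in pistil against 8.94, 9.33 and 9.42 in bracts. The differences of 3.29 and -3.09 were of like size and opposite sign. In cluster Ta.1725 the differences were 5.24 for Ta.1725.3.S1_at and -2.19 for Ta.1725.2.S1_at. A gene named by 1 probeset here therefore need not stand for all sequences of its cluster. Calls were also more frequent among Ta. probesets, with 10.5% higher and 14.3% lower, than among TaAffx. probesets, with 5.58% and 8.27%. The median level, as the mean of the 2 organs, was 7.36 for Ta. probesets and 5.58 for TaAffx. probesets.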

How the data were processed

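The deposited values are MAS5 signals (unit intensity, linear scale), 1 per probeset and array. The authors scaled the arrays to a common trimmed mean, and the version of MAS5 is not given in the sources used here. RMA values, used in the paper's own analysis, were not used here. An offset of 16 was added before log2. One mean per tissue was fitted to all 39 arrays in limma 3.58.1 (R 4.3.3) with no covariates and empirical Bayes variances, and p-values were Benjamini-Hochberg adjusted over 39564 probesets. Calls required an adjusted p under 0.05 and an absolute difference of at least 1. The fit was tested on simulated data. With 3 arrays per tissue, described in the study as biological replicates, differences near the limit can be missed.

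Gene names came from the platform annotation (1273 probesets, of which 1272 had a gene ID that matched RefSeq), with 713 retained probesets matched. Named in full were the 10 named probesets with the largest called, non-overlapping difference in each direction, and the 5 largest whatever their name. The members and gene lists, of which carbohydrate metabolism and translation initiation were extended once values were known, were chosen with earlier results of these data known. No sequences were printed. Tables were made in pandas 2.3.3 with numpy 2.4.6, and plots in matplotlib 3.10.9, all under Python 3.11.15.

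Alternatives were other scalings (quantile, equal median, hybridization controls), offsets of 1 and 64, filters, fits on the 6 arrays, trended or robust variances, a replicate block, a limit of 2, and leaving out each array.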

Additional observations from a re-analysis of the deposited data

Results flagged for a closer look

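Some probesets outside the retained set carried a difference between the organs. The array's control probesets for the cytochrome P450 gene CYP86-TA were higher in pistil, and none of their arrays overlapped between the organs. The probeset for the 3' part read 10.55, 10.14 and 10.67 in pistil and 4.54, 5.31 and 5.61 in bracts, a difference of 5.30. The middle and 5' probesets differed by 2.22 and 1.77. In bracts the 3' probeset was at background, whereas the middle and 5' probesets, at 6.86 ± 0.43 and 6.74 ± 0.32 (SD, n = 3), lay slightly above it. The control probesets for glucose-6-phosphate dehydrogenase (G-6-PDH) were lower in pistil, by -1.28 for the 5' probeset, -1.15 for the middle one and -0.86 for the 3' one. The names of these G-6-PDH probesets carry a suffix of cross-hybridizing sets. The differences of these control probesets were not tested. Among all retained probesets, 39.1% had no overlap between the organs, in either direction. Of 8847 probesets of ambiguous orientation (.A1), 923 were higher and 1195 lower in pistil, 10.4% and 13.5%.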

How the results depend on the processing

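Against 2957 probesets higher and 4208 lower in pistil, an offset of 64 gave 1967 higher, and scaling to the hybridization controls 1965 higher. All probesets except controls gave 5477 higher and 7761 lower among 61115 tested, and a limit of 2 gave 936 and 1979. The .A1 probesets alone, chosen after seeing the data, gave 923 and 1195. Other alternatives stayed within 1.5 times. Leaving out 1 array gave 2719 to 2924 higher and 3910 to 4082 lower. Same-numbered arrays did not deviate together (r = -0.005, -0.024 and -0.003). This cannot tell whether same-numbered samples of the organs came from the same spikes. A replicate block on the 6 arrays gave 2631 and 3799, against 2870 and 4028 on these arrays without it. None of the 30 probesets named in full changed call or direction under the alternatives that kept it. Of 60 called probesets named or listed, 12 lost the call at least once, and of 60 not called, 12 gained it at least once. No called probeset changed sign. The cause of these changes was not tested. Signals at background limit what can be said of the 54.8% of probesets at background in both organs, and 3 arrays per organ limit the precision.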

Other observations

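Among the control genes on the array, ubiquitin read 14.03 ± 0.04 in pistil and 14.05 ± 0.09 in bracts (3' probeset, SD, n = 3 each). Sucrose synthase, which cleaves sucrose at the start of its use in growing tissues, was bright in both organs, at 13.22 ± 0.05 in pistil and 13.52 ± 0.13 in bracts for its 3' probeset and 12.16 ± 0.09 in pistil and 12.78 ± 0.06 in bracts for its middle probeset. All 3 of its probesets were lower in pistil without overlap between arrays, by -0.31 to -0.63. Over all retained probesets, 39.1% had no overlap between the organs, in either direction. The sucrose synthase differences were not tested. Actin probesets averaged 7.56 to 9.11 in pistil and 8.09 to 10.13 in bracts, and 14.93 to 15.67 in anthers.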
